A study of Mus musculus with 8 samples.

Results

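CD4+ T cells taken from the colon of mice with transfer colitis were compared between Rora knockout and control cells in 4 of the 8 RNA sequencing libraries of the series, 2 per genotype, chosen by their labels. Control cells came from Rora_fl/fl mice, whose Rora gene carries sites for the Cre recombinase and stays intact. Knockout cells came from Cd4_cre Rora_fl/fl mice, in which Cre is driven by Cd4 and so acts in developing T cells in general, not in Th17 cells alone. Naive CD4+ T cells were transferred from these donors into Tcrbd-/- recipients, which make no αβ or γδ T cells but keep B cells, innate lymphoid cells and myeloid cells. After 6 weeks, CD4+ cells were isolated from the colon and treated for 2 hours with PMA and ionomycin, which set off cytokine transcription. No label states the age of the mice. The other 4 libraries were Th17 cells cultured for 4 days, in 1 mix with IL-6 plus TGF-β and in the other with IL-23, IL-1β and IL-6, 1 control and 1 knockout each, and are used here to show which colon differences were also present outside the gut. They were treated with PMA and ionomycin in the same way.

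RORα, the product of Rora, is a nuclear receptor that binds DNA as a monomer at the half-site AGGTCA, preferably after an AT-rich stretch. In T cells it acts beside RORγt in T helper 17 (Th17) cells, which secrete IL-17A and IL-17F, and in many cell types it drives genes of the circadian clock such as Arntl. Colitis after transfer of naive CD4+ T cells is known for Th1 cells, which secrete interferon-γ under T-bet, and Th17 cells, while Th2 cells secrete IL-4, IL-5 and IL-13 under GATA3. The title of the series links RORα to mTORC1, a kinase complex that couples nutrient supply to protein synthesis and glycolysis.

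Promoters of 4 genes that fell in the knockout and hold the ROR half-site, and of Il4, which rose and does not, are given below because these genes recur in the results. Each covers 250 bases upstream of the most upstream start site in RefSeq's annotation of GRCm38.p6, written 5′ to 3′ on the strand of the gene. Capitals mark AGGTCA, with the preceding T where it is present, or its reverse complement.
Il17a, chr1:20730655-20730904, plus strand: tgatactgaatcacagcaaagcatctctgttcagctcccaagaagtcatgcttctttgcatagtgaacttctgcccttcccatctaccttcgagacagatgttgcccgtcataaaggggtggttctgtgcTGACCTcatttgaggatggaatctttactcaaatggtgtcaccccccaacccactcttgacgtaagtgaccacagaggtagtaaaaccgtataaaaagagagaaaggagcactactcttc
Il17f, chr1:20784271-20784520, minus strand: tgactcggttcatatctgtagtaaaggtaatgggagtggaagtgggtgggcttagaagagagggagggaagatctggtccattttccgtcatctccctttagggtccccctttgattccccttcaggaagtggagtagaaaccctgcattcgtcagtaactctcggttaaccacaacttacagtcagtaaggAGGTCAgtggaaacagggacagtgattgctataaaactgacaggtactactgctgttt
Ccr6, chr17:8235793-8236042, plus strand: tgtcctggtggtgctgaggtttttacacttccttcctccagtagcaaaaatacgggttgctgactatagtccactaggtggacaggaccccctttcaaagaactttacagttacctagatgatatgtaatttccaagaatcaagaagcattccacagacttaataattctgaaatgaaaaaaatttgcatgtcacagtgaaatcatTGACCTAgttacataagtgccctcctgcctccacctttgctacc
Nfil3, chr13:52981040-52981289, minus strand: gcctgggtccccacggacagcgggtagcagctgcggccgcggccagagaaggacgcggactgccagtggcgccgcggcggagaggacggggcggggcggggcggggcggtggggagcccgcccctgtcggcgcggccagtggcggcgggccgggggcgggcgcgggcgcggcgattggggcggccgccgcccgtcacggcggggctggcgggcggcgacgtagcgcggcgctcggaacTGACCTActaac
Il4, chr11:53618666-53618915, minus strand: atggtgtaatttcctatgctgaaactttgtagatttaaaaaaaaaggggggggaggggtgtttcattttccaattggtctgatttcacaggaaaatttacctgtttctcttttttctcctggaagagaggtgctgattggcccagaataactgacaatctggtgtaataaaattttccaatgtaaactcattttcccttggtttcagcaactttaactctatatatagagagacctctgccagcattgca
The half-site lay at -120 to -115 from the start site in Il17a and at -58 to -53 in Il17f, and TAGGTCA lay at -44 to -38 in Ccr6 and at -12 to -6 in Nfil3. Windows of the 250 bases upstream of each start site were searched on both strands. AGGTCA occurred in 14.02% of 32851 windows and TAGGTCA, which contains it, in 2.23%. Of tested genes with a window, 12.8% held AGGTCA, against 18 of 107 that fell at least 2-fold (16.8%) and 67 of 527 that rose at least 2-fold (12.7%). The windows of Il4, Il5, Il13, Il3 and Gata3, which rose, held none, but neither did those of Il22, Arntl, Hlf, Cry1, Batf and Hk2, which fell. One of the windows of St6gal1, which rose, held TAGGTCA, so presence of the site did not separate genes that fell from genes that rose. A match describes the letters only and shows no binding.

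The colon libraries held 13176752 to 14967756 counts, and 13101 genes passed a filter on low counts. By edgeR's quasi-likelihood test, at a Benjamini-Hochberg adjusted p of 0.05, 2566 genes (19.6%) were higher and 2607 (19.9%) lower in the knockout, 39.5% in all. At least 2-fold differences were found for 859 higher genes (6.56%) and 215 lower genes (1.64%). Levels are given as CPM, a gene's count relative to the size of its library after TMM scaling, which takes most genes as equal between libraries. Differences are log2 of knockout over control, ± their standard errors. The summed level of 18 T cell marker genes was 13960 and 13480 CPM in control and 10840 and 10680 CPM in knockout. With plain library totals, or with libraries set to an equal sum of these markers, all log2 differences moved up, by a median of 0.19 and 0.35. Library totals then gave 32.8% of genes higher and 9.59% lower, and T cell marker scaling 45.6% and 4.89%. All 2566 higher genes were higher in each of the 3 scalings, while 641 of the lower genes were lower in all 3 and 647 had a difference above 0 with T cell marker scaling. Below, "lower in all 3 scalings" marks the first of these. In bulk libraries, fewer cells of a type and less RNA per cell cannot be told apart.

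Levels of antigen receptor V segments were closer within a genotype than between genotypes, to a degree that differed by receptor chain. V segments are used by clones of B and T cells and differ from mouse to mouse. Over 122 immunoglobulin V segments, log2 levels correlated with r = 0.923 between the control libraries and r = 0.959 between the knockout libraries, against 0.199 to 0.250 between genotypes. Over 48 alpha V segments of the T cell receptor, r was 0.953 and 0.921 within genotypes and 0.346 to 0.439 between them. Over 22 beta V segments, r was high in both cases, at 0.985 and 0.988 within genotypes and 0.906 to 0.924 between them. These correlations are descriptions over segments that share libraries. Between the control and between the knockout libraries, counts of immunoglobulin V segments differed by a mean chi-square of 1.18 and 1.36 per segment. Counting error alone gives 1. The mean was 1.67 and 1.31 for alpha segments, 2.49 and 1.97 for beta segments and 7.31 and 5.52 over all genes. Chi-square grows with counts. Its median was 0.613 and 0.623 for immunoglobulin, 0.526 and 0.471 for alpha and 1.29 and 2.17 for beta segments, and 1.12 and 1.28 over all genes. The labels do not say which mice a library came from, and separate mice, pooled mice and divided samples cannot be told apart. The p-values therefore measure only the spread between libraries, which may be technical.

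Rora RNA was lower in both knockout libraries, at 252 and 291 CPM in control and 134 and 149 CPM in knockout, without overlap. The log2 difference was -0.94 ± 0.09 and held in all 3 scalings. Per count of Cd3e, a chain of the T cell receptor complex, Rora stood at 0.779 and 0.956 in control and at 0.493 and 0.564 in knockout. The genotype difference in cultured cells was -1.38 in a joint fit of all 8 libraries, and the colon difference was smaller in size by 0.43 ± 0.12 (SE, edgeR quasi-likelihood, adjusted p = 0.028). Without control replicate 1 this was 0.33 (edgeR adjusted p = 0.114) and without knockout replicate 2 it was 0.35 (edgeR adjusted p = 0.116). Where the reads lie in the gene was not given, so reads from exons that the deletion leaves in place may be counted.

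The secreted cytokines changed rank. Of 24 tested members, 9 rose, 12 fell and 3 did not pass, and the libraries of the genotypes did not overlap for 23 of them, against 70.5% of all genes tested. Per kilobase of exon, Il17a was the most abundant of 26 listed cytokine genes in control and number 6 in knockout, where Il13 came first and Il2 second. Il17a made up 18.9% ± 0.54 (SD, n = 2) of the summed CPM per kilobase of these genes in control and 5.16% ± 0.042 in knockout. The share of Il13 went from 6.91% ± 0.20 to 27.6% ± 1.8, that of Il4 from 0.291% ± 0.053 to 3.58% ± 0.28, and that of Il3 from 0.0947% ± 0.0086 to 3.61% ± 0.035. Tnf and Ifng ranked 2 and 3 in control and 3 and 4 in knockout. These shares are formed within a library and do not depend on scaling between libraries.

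**Figure D1:**
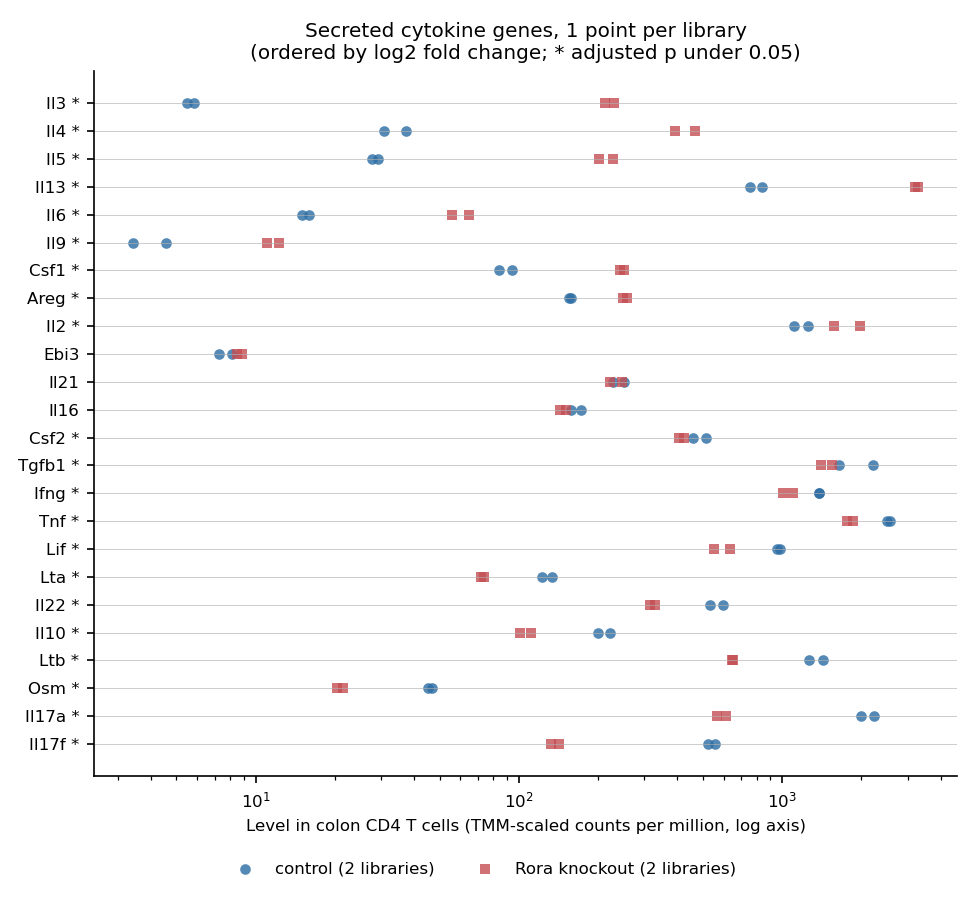
Level of each tested cytokine gene in TMM-scaled CPM (log axis), 1 point per library, blue circles for control and red squares for Rora knockout, ordered by log2 difference. Il3, Il4, Il5 and Il13 at the top have knockout points far to the right of the controls, and Il17f and Il17a at the bottom have them to the left.

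Il17a was present at 2001 and 2227 CPM in control and 566 and 611 CPM in knockout, a log2 difference of -1.84 ± 0.09. Il17f (-1.98 ± 0.08) and Il22 (-0.81 ± 0.08), the epithelial barrier cytokine of Th17 cells, were also lower in both knockout libraries, and all 3 genes were lower in all 3 scalings. On the type 2 side, Il4 was present at 37.3 and 30.7 CPM in control and 391 and 467 CPM in knockout (3.66 ± 0.12), Il5 at 27.7 and 29.2 CPM in control and 202 and 227 CPM in knockout (2.91 ± 0.10), and Il13 at 753 and 839 CPM in control and 3276 and 3185 CPM in knockout (2.02 ± 0.08). Il3, a growth factor of mast cells and basophils that lies in the same chromosome 11 region, rose from 5.86 and 5.505 CPM to 212 and 229.7 CPM (5.28 ± 0.11). In all 4 of these genes every knockout library lay above every control library.

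Ratios of raw counts within a library showed which cytokines moved together. Il13 over Il17a was 0.376 and 0.377 in control libraries, against 5.79 and 5.21 with the knockout. Il4 over Ifng was 0.0270 and 0.0222 in control and 0.388 and 0.426 in knockout, and Gata3 over Tbx21, the T-bet gene, went from 0.715 and 0.703 to 1.73 and 1.80. None of these 3 ratios overlapped between genotypes. By contrast, Ifng over Tbx21 (6.07 and 6.001 against 5.38 and 6.24) overlapped, and Il17f over Il17a (0.278 and 0.235 against 0.234 and 0.233) differed little. The type 2 cytokines did not share a factor, since Il13 over Il4 was 20.2 and 27.3 in control and 8.38 and 6.82 in knockout. An exact permutation test of 2 against 2 libraries cannot pass 0.05, so none is given.

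Cytokines outside these families differed too. Il6, an inflammatory cytokine that also helps B cells (chr5:30013114-30019981, plus strand, mm10), was present at 14.97 and 15.9 CPM in control and 55.9 and 64.6 CPM in knockout (1.96 ± 0.11). Csf1, a growth factor of macrophages, rose from 83.9 and 94.2 CPM to 252 and 243 CPM (1.47 ± 0.09). Il9, a mast cell growth factor, rose from 4.56 and 3.43 CPM to 11.05 and 12.2 CPM (1.55 ± 0.19), and Areg, an epidermal growth factor family ligand active in tissue repair, by 0.69 ± 0.08. In each of them the knockout libraries lay above the controls. Ltb, a lymphotoxin chain needed for lymphoid tissue, fell from 1267 and 1435 CPM to 648 and 645 CPM (-1.06 ± 0.08). Osm (-1.13 ± 0.10) and Lif (-0.70 ± 0.09), ligands of the gp130 receptor family, Lta (-0.81 ± 0.08) and the anti-inflammatory Il10 (-0.99 ± 0.09) were likewise lower in all 3 scalings. Tnf (-0.48), Ifng (-0.40) and Csf2 (-0.23) passed as lower with TMM but not in all 3 scalings, and with T cell marker scaling their differences were -0.13, -0.04 and 0.12. Il21, a helper cytokine for B cells, did not pass (-0.04 ± 0.09), with 0.32 under T cell marker scaling. Csf2 also lost its call without control replicate 1 (-0.15) or knockout replicate 1 (-0.22).

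Helper subset genes followed the cytokines in part. For each group count from here on, the shares over all genes tested were 19.6% higher and 19.9% lower. For Th2 genes, of 18 tested members, 15 rose, 1 fell and 2 did not pass, with a median log2 difference of 1.27 against 0.01 over all genes. Gata3 was present at 163 and 162 CPM in control and 323 and 317 CPM in knockout (0.98 ± 0.08), and Il1rl1, the IL-33 receptor, at 104 and 101 CPM in control and 191 and 199 CPM in knockout (0.93 ± 0.08). Il17rb, the IL-25 receptor chain, rose by 1.001 ± 0.20. For Th17 genes, of 25 tested members, 4 rose, 15 fell and 6 did not pass, with a median of -0.58, and 12 were lower in all 3 scalings. Ccr6, the CCL20 receptor of Th17 cells, fell from 18.1 and 18.2 CPM to 4.501 and 5.304 CPM (-1.88 ± 0.15), and Batf, an AP-1 factor needed for Th17 differentiation, from 1029.7 and 1009.9 CPM to 469 and 441 CPM (-1.16 ± 0.08). Il23r, the IL-23 receptor, was lower with TMM (-0.61) but not in all 3 scalings or without knockout replicate 2 (-0.53). Maf (0.59) and Ahr (0.42), transcription factors also used by Th17 cells, rose.

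Th1 genes split, and of 21 tested members, 4 rose, 9 fell and 8 did not pass. Cxcr3, the Th1 homing receptor, fell from 374 and 366 CPM to 199.7 and 197 CPM and was lower in all 3 scalings, whereas Tbx21 (-0.34 with TMM) stood at 0.01 with T cell marker scaling. Il12rb2, the signalling chain of the IL-12 receptor, rose (0.78 ± 0.11). Ifng over Cd3e was 4.26 and 4.55 in control and 3.71 and 4.15 in knockout, and Cxcr3 over Cd3e was 1.15 and 1.20 against 0.737 and 0.745.

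For regulatory T cell genes, of 19 tested members, 4 rose, 6 fell and 9 did not pass, with a median of 0.004. Foxp3, the lineage factor, did not pass with TMM (0.09 ± 0.08) but passed as higher with library totals (0.28) and T cell marker scaling (0.44). Nt5e, the ectoenzyme CD73, rose from 103 and 100.2 CPM to 219 and 228 CPM, and Nrp1, a co-receptor found on thymic regulatory T cells, rose from 3.09 and 3.43 CPM to 14.7 and 15.1 CPM. Ikzf2, the transcription factor Helios (1.15 ± 0.10), and Lrrc32, which anchors latent TGF-β (0.81 ± 0.09), rose too. In these 4 genes, both knockout libraries lay above both controls. The 6 that fell were Il10, the TNF receptors Tnfrsf18 (-0.40) and Tnfrsf4 (-0.34), the decoy receptor Il1r2 (-0.41), the IL-2 receptor chain Il2ra (-0.34) and the inhibitory receptor Ctla4 (-0.34), of which Il10 was lower in all 3 scalings and the others were not. With T cell marker scaling, Il2ra stood at 0.01, Ctla4 at 0.01 and Tnfrsf4 at 0.01.

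Chemokines and their receptors moved in both directions. For chemokines, of 15 tested members, 7 rose, 4 fell and 4 did not pass. Cxcl3, a neutrophil attractant, fell from 301 and 319 CPM to 95.9 and 99.2 CPM (-1.67 ± 0.08). The inflammatory chemokines Ccl3 (-1.002 ± 0.11), Ccl4 (-1.13 ± 0.08) and Ccl5 (-0.996 ± 0.08) were lower, all in each scaling. Ccl1, a ligand of the Th2-associated receptor CCR8, rose from 447 and 464 CPM to 1337 and 1502 CPM (1.64 ± 0.09), and the CXCR3 ligand Cxcl10 rose from 19.2 and 18.2 CPM to 50.1 and 56.1 CPM. Myeloid and stromal cells also make Cxcl10 and Cxcl2 (1.40 ± 0.09), and their markers are given below.

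Among homing receptors, Gpr15, which directs T cells to the large intestine, rose from 6.75 and 7.51 CPM to 37.8 and 42.95 CPM (2.497 ± 0.13). Ccr9, the receptor for small intestinal CCL25, rose from 19.1 and 18.2 CPM to 35.3 and 34.6 CPM (0.91 ± 0.11). Itgb7, the β7 chain of the gut integrin α4β7, fell from 714 and 634 CPM to 443 and 392 CPM (-0.69 ± 0.09), as did Selplg, the selectin ligand PSGL-1 (-0.80 ± 0.10), and Gpr183, the oxysterol receptor EBI2 (-0.91 ± 0.08), all in each scaling. The collagen-binding integrin chains Itga1 (1.07 ± 0.15) and Itgb1 (0.70 ± 0.09) rose. For these receptors together, of 30 tested members, 10 rose, 9 fell and 11 did not pass.

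Cytokine and TNF family receptors held some of the largest falls. Tnfrsf25, the receptor DR3 for TL1A (chr4:152115934-152120119, plus strand, mm10), was present at 256 and 283 CPM in control and 66.5 and 67.3 CPM in knockout (-2.01 ± 0.09). Il2rb, the IL-2 and IL-15 receptor β chain, fell from 2260.2 and 2175 CPM to 1121 and 1021 CPM (-1.05 ± 0.08), and Tnfrsf1b, a TNF receptor, fell by 0.66 ± 0.08 on the log2 scale. All 3 were lower in each scaling and without overlap. Il6ra, the IL-6 receptor chain, rose from 2.44 and 2.43 CPM to 7.09 and 7.504 CPM (1.58 ± 0.20), and its partner Il6st by 0.74 ± 0.09. For the TNF receptor superfamily, of 18 tested members, 6 rose, 6 fell and 6 did not pass, with a median of -0.02. In this family, 2 members were lower in all 3 scalings. For interleukin and cytokine receptor chains, of 36 tested members, 14 rose, 8 fell and 14 did not pass. For inhibitory and costimulatory receptors, of 21 tested members, 7 rose, 7 fell and 7 did not pass, with a median of 0.004. Cd200r1 (1.79 ± 0.14), Btla (0.93 ± 0.09) and Havcr2, the TIM-3 gene (0.86 ± 0.09), rose, and Cd226, a costimulatory receptor, fell by 0.90 ± 0.18 in all 3 scalings.

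Among clock genes was the ROR target Arntl, which fell from 68.8 and 71.1 CPM to 27.4 and 27.7 CPM (-1.34 ± 0.09). Cry1, a repressor of the clock (-1.12 ± 0.09), Hlf, a PAR bZIP factor (-1.34 ± 0.11), and Nfil3, a bZIP repressor whose promoter is printed above, from 189.5 and 178 CPM to 102 and 99.4 CPM (-0.87 ± 0.08), fell too, all in each scaling. Nr1d1, the REV-ERBα gene (-0.27 ± 0.19), and Per2 (0.30 ± 0.17) did not pass, although Per2 was higher with T cell marker scaling (0.65). For ROR and clock genes together, of 21 tested members, 3 rose, 8 fell and 10 did not pass. In signalling, Jak2, a kinase of cytokine receptors, rose from 600.5 and 572 CPM to 1135 and 1176 CPM and Malt1, a protease of antigen receptor signalling, rose from 142 and 135 CPM to 323 and 340.4 CPM. Bcl3, a nuclear IκB protein, fell from 408 and 476 CPM to 203 and 179 CPM, Socs3, an inhibitor of gp130 signalling, fell by 0.76 ± 0.08, and Stat3, its transcription factor, fell by 0.58 ± 0.08.

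Cytotoxic genes moved in both directions, and of 20 tested members, 7 rose, 7 fell and 6 did not pass. Gzma, a granzyme, rose from 161 and 151 CPM to 582 and 652 CPM (1.99 ± 0.09), and Klrk1, the NKG2D receptor, rose from 16.1 and 15.5 CPM to 43.2 and 43.9 CPM. Prf1, perforin, fell from 58.2 and 55.5 CPM to 32.3 and 34.3 CPM (-0.77 ± 0.09), as did Gzmk (-0.90 ± 0.10) and the receptor Klrc1 (-1.02 ± 0.10), all in each scaling. Cd8a, the coreceptor of cytotoxic T cells, had 20.2 and 17.5 CPM in control and 2.05 and 2.07 CPM in knockout. The markers of CD8 and γδ T cells together had 2 of 5 tested members higher and 2 lower and summed to 87.4 and 88.3 CPM in control and 57.5 and 72.6 CPM in knockout. The part of these cells in the results was not tested.

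Metabolic and biosynthetic groups did not move as one. Glycolysis, respiratory chain and ribosomal protein genes fell more often than they rose. Nucleolar ribosome assembly genes went both ways, with 14 higher and 10 lower of 45 (31.1% and 22.2%). Cholesterol genes had 6 higher and 6 lower of 32 (18.75% each), near the 19.6% and 19.9% over all genes tested. For mTORC1 and its activators, of 30 tested members, 4 rose, 9 fell and 17 did not pass, with a median of -0.09 that was 0.26 with T cell marker scaling. Mtor, the kinase itself, did not pass (-0.21 ± 0.10). Slc7a5, the leucine transporter chain, fell from 443 and 466 CPM to 309 and 287 CPM (-0.61 ± 0.08), as did Akt2, a kinase upstream of the complex (-0.62 ± 0.08), and Lamtor1, its lysosomal anchor (-0.59 ± 0.08), all in each scaling. Rps6kb1, the substrate kinase S6K1 (0.39 ± 0.09), and Rragd, a Rag GTPase (0.95 ± 0.22), rose. For mTORC1 inhibitors, of 23 tested members, 6 rose, 6 fell and 11 did not pass. Sesn1, a leucine-responsive sestrin, rose by 1.08 ± 0.14, and Castor2, an arginine-linked inhibitor, by 0.89 ± 0.14, while the stress-induced Ddit4 fell by 0.87 ± 0.10. For glycolysis, of 25 tested members, 1 rose, 13 fell and 11 did not pass. The glycolysis median was -0.42, and 10 genes were lower in all 3 scalings. Hk2, the inducible hexokinase, fell from 242 and 207 CPM to 115 and 93.7 CPM, and Ldha, which forms lactate, from 1274 and 1259 CPM to 793 and 781 CPM. Among nuclear genes of the respiratory chain, of 77 tested members, 1 rose, 54 fell and 22 did not pass, and 18 were lower in all 3 scalings. Of 80 cytosolic ribosomal protein genes found by name, 69 fell and 11 did not pass, with a median of -0.68 that was -0.32 with T cell marker scaling.

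Secretory and interferon-induced genes differed in direction, and cell cycle genes were less clear. For endoplasmic reticulum genes, of 31 tested members, 2 rose, 21 fell and 8 did not pass. All 3 scalings gave 10 lower genes, among them Ern1, the stress sensor IRE1α, which fell from 440.4 and 406 CPM to 227 and 205 CPM. Eef2, the ribosomal translocase, fell from 8845 and 8593 CPM to 5372 and 4869 CPM, and Asns, an ATF4 target that makes asparagine, fell by 0.93 ± 0.08. For mitosis genes, of 37 tested members, 7 rose, 3 fell and 27 did not pass. The share that rose, 18.9%, was near the 19.6% of all genes tested, and 8.1% fell against 19.9%. Mki67, the proliferation marker, went from 23.2 and 21.9 CPM to 35.9 and 38.8 CPM. For DNA replication, of 43 tested members, 2 rose, 15 fell and 26 did not pass. Only 2 were lower in all 3 scalings, and with T cell marker scaling 9 were higher and 2 lower. Guanylate-binding proteins and related interferon-induced GTPases rose in 12 of 15 tested members, the other 3 did not pass, and the median was 0.56.

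**Figure D2:**
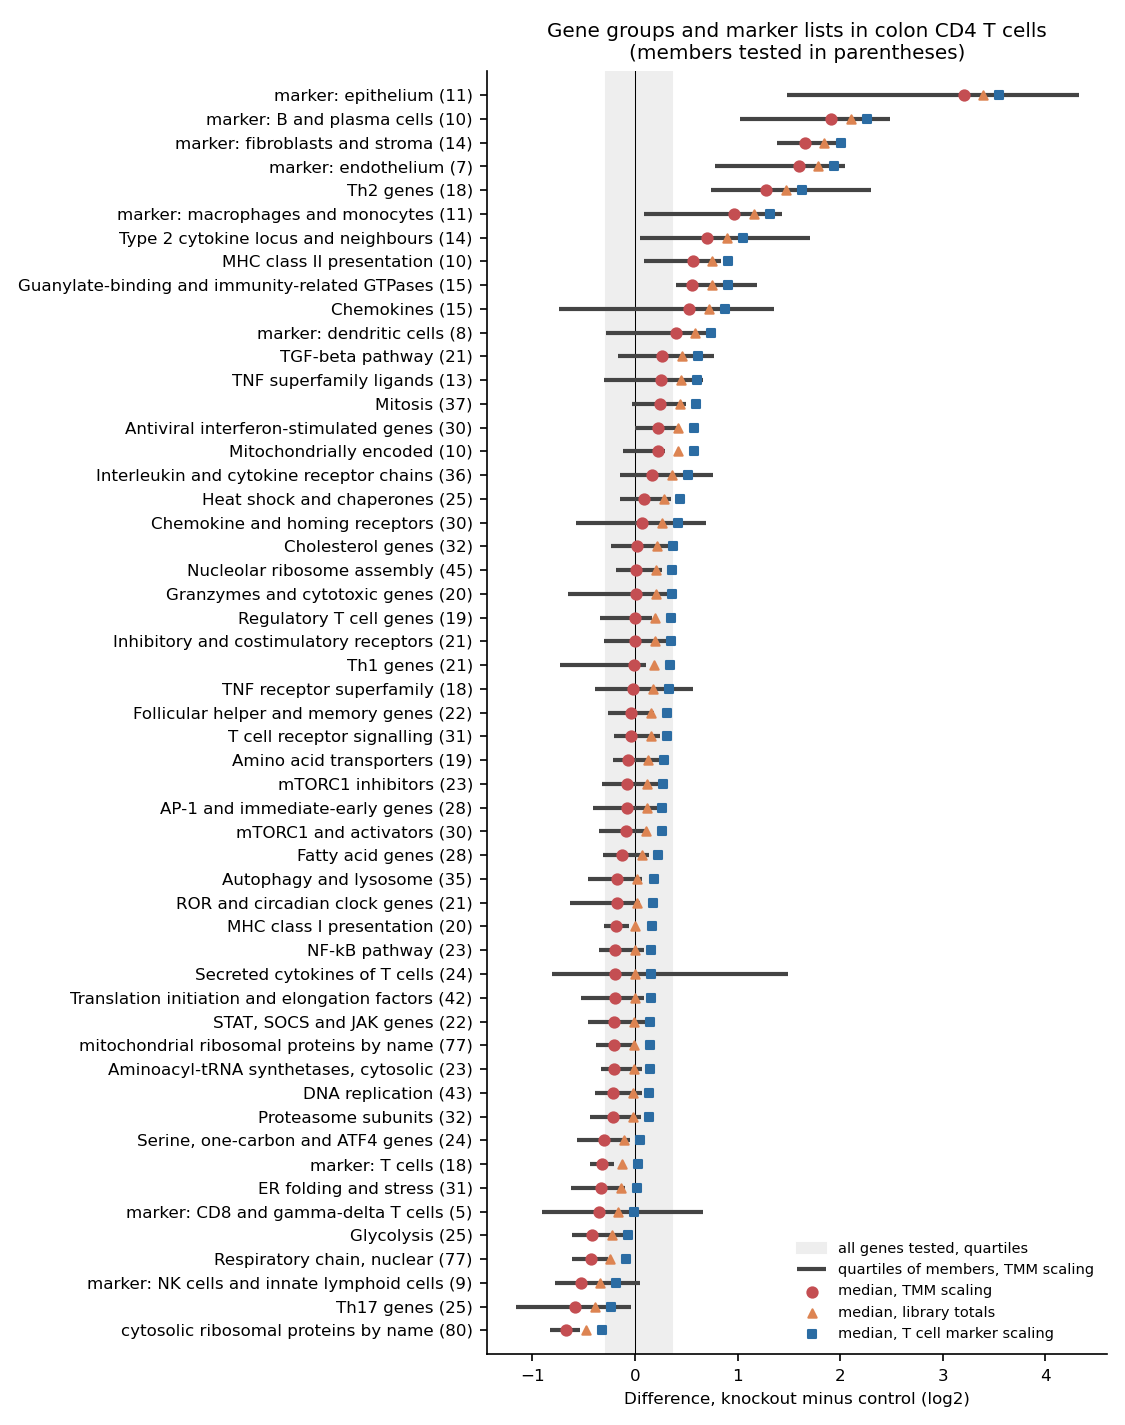
Median log2 difference, knockout minus control, of each gene group and marker list with 5 or more tested members, for TMM scaling (red circles, bars give the quartiles of members), library totals (orange triangles) and T cell marker scaling (blue squares), and the quartiles of all genes (grey band). Markers of epithelium, B and plasma cells and stroma and the Th2 genes lie at the top, and Th17 genes and ribosomal proteins at the bottom.

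The differences also ran with transcript length. Among protein-coding genes with at least 10 CPM in a cultured library, the median log2 difference in colon was -0.35 for 131 genes under 1 kb of exon and 0.11 for 3036 genes over 6 kb. The matching medians in cultured cells were -0.04 and 0.01. When a length term was added to the fit, the colon medians became -0.17 and -0.03, and the respiratory chain group had 44 lower genes (median -0.34) where without the term it had 54 (-0.43). Ribosomal protein genes had 64 lower genes (median -0.60) with the term and 69 (-0.68) without it. RNA quality itself was not measured in these files, and its part was not tested. Malt1, with long transcripts, stood at 1.26 without and 0.97 with the length term.

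**Figure D3:**
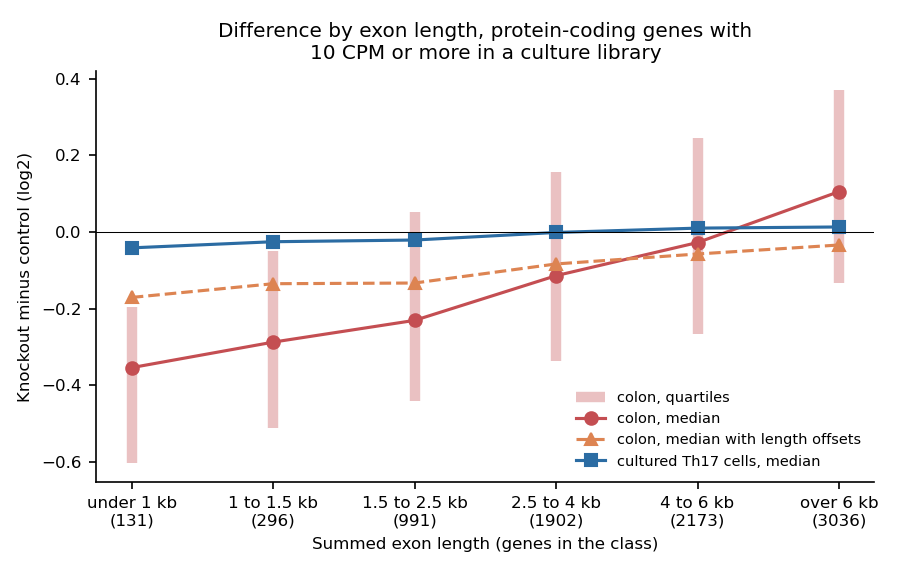
Median log2 difference of knockout minus control by summed exon length for protein-coding genes with 10 CPM or more in a cultured library, in colon (red, bars are quartiles), in colon with a length term (orange, dashed) and in cultured Th17 cells (blue). The colon medians climb from -0.35 in the shortest class to 0.11 in the longest, and those of cultured cells stay between -0.04 and 0.01.

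RNA of other cell types differed between genotypes as well. Summed markers of epithelium were at 53.6 and 50.6 CPM in control and 142 and 140.5 CPM in knockout, with 10 of 11 tested members higher. B and plasma cell markers were at 604 and 592 CPM in control and 2173 and 2361 CPM in knockout (8 of 10 higher), fibroblast and stromal markers at 51.3 and 37.3 CPM in control and 152 and 144 CPM in knockout (12 of 14 higher), and macrophage markers at 78.9 and 75.3 CPM in control and 136 and 134 CPM in knockout (7 of 11 higher). All 4 sums were higher in both knockout libraries. Other lists did not rise as clearly. Endothelial markers overlapped in sum, at 108.8 and 103.3 CPM in control and 113 and 108.5 CPM in knockout (5 of 7 higher). Of 8 dendritic cell markers, 4 were higher and 2 lower, and the 1 tested marker of enteric glia and neurons was lower (-1.34). Neutrophil markers summed to 1.54 to 2.98 CPM, and the mast cell and basophil receptor chain Ms4a2 had a count of 0 in all 4 libraries. Of 9 tested markers of NK and innate lymphoid cells, 4 were lower, 1 was higher and 4 did not pass, and they summed to 1002 and 1079 CPM in control and 698 and 754 CPM in knockout. Of 1225 tested genes under 1 CPM in every cultured library, 475 rose and 95 fell, and 422 of those that rose did so at least 2-fold. Of 8849 genes at 10 CPM or more in culture, 1674 rose and 2277 fell. Il6, Csf1, Cxcl2 and Cxcl10 are also made by stromal and myeloid cells, and Il13, Il5 and Areg by innate lymphoid cells. The part of these cells in the results was not tested. This holds for genes that fell, such as Il17a, Il17f and Il22, as for genes that rose.

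Hdc, the enzyme that makes histamine, rose from 17.9 and 16.4 CPM to 102 and 100.3 CPM (2.56 ± 0.10), and Mcpt1, a mucosal mast cell protease, from 0.0813 and 0.0715 to 4.02 and 4.01 CPM. Kit, the stem cell factor receptor of mast cells and some innate lymphoid cells, went the other way, from 199 and 199 CPM to 115 and 101 CPM (-0.88 ± 0.09). Of 4 tested markers of mast cells, basophils and eosinophils, a list without Hdc, 2 were higher, Kit was lower and 1 did not pass.

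The largest changes among genes that cultured Th17 cells also express at 10 CPM or more were led upward by St6gal1, a sialyltransferase (chr16:23224740-23360350, plus strand, mm10), from 21.8 and 16.8 CPM to 131 and 134 CPM (2.78 ± 0.12). Rasgrp4, a Ras exchange factor, rose from 4.64 and 5.22 CPM to 30.6 and 28.3 CPM, and Angptl2, a secreted angiopoietin-like protein, from 22.3 and 20.4 CPM to 78.9 and 76.98 CPM. The nuclear non-coding RNA Malat1 rose from 80.4 and 120.0 CPM to 299 and 317 CPM. Downward, Serpinb1a, a protease inhibitor found in Th17 cells, fell from 677 and 662 CPM to 197 and 197 CPM (-1.77 ± 0.08), Aqp3, a water and glycerol channel, from 24.1 and 22.1 CPM to 6.27 and 6.404 CPM, and Itga3, a laminin-binding integrin chain, from 66.4 and 65.8 CPM to 25.03 and 22.7 CPM. Of genes under 1 CPM in culture, Ablim3, an actin-binding protein, fell from 29.9 and 28.2 CPM to 4.297 and 3.56 CPM and Smoc2, a matrix protein, from 70.9 and 69.6 CPM to 20.9 and 18.3 CPM.

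**Figure D4:**
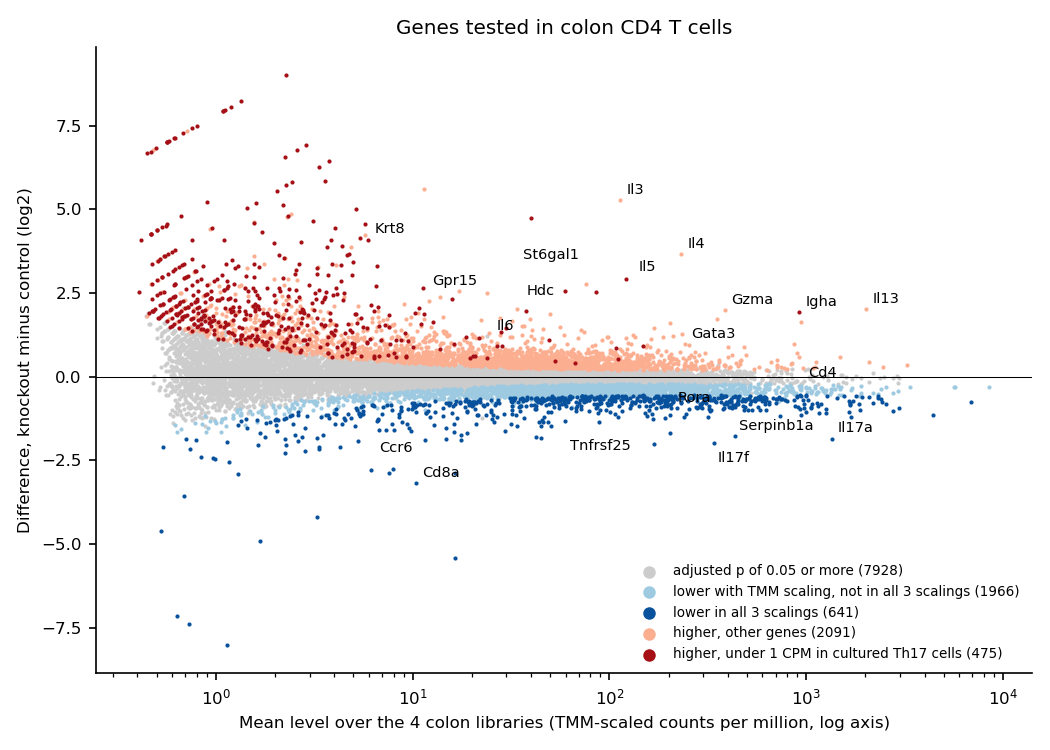
Log2 difference, knockout minus control, against the mean level of the 4 colon libraries in TMM-scaled CPM (log axis), 1 point per tested gene. Dark blue marks the 641 genes lower in all 3 scalings, and dark red the 475 higher genes under 1 CPM in cultured cells, many of them at low levels.

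Whether the knockout difference in colon was that of cultured Th17 cells was tested as an interaction in the joint fit of 8 libraries, in which the cytokine mixes serve as repeats. It passed for 2550 of 15836 genes (16.1%), with the colon difference above that of culture for 1110 (7.01%) and below it for 1440 (9.09%). Il17a and Il17f were lower in both settings and fell further in colon (-1.86 against -0.90, and -1.99 against -0.72). The type 2 genes differed between settings in part. Of 18 Th2 genes tested for this, 10 had the colon difference above that of culture and 1 below. Il13 stood at 2.01 in colon and -0.996 in culture, and Gata3 at 0.97 and -0.09. Il5 was not among the genes that passed. Ifng had a negative difference in colon (-0.41) and a positive one in culture (2.30), where its level was under 1 CPM. St6gal1 (2.77 against -0.06) and Tnfrsf25 (-2.02 against -0.22) also differed between the settings.

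**Figure D5:**
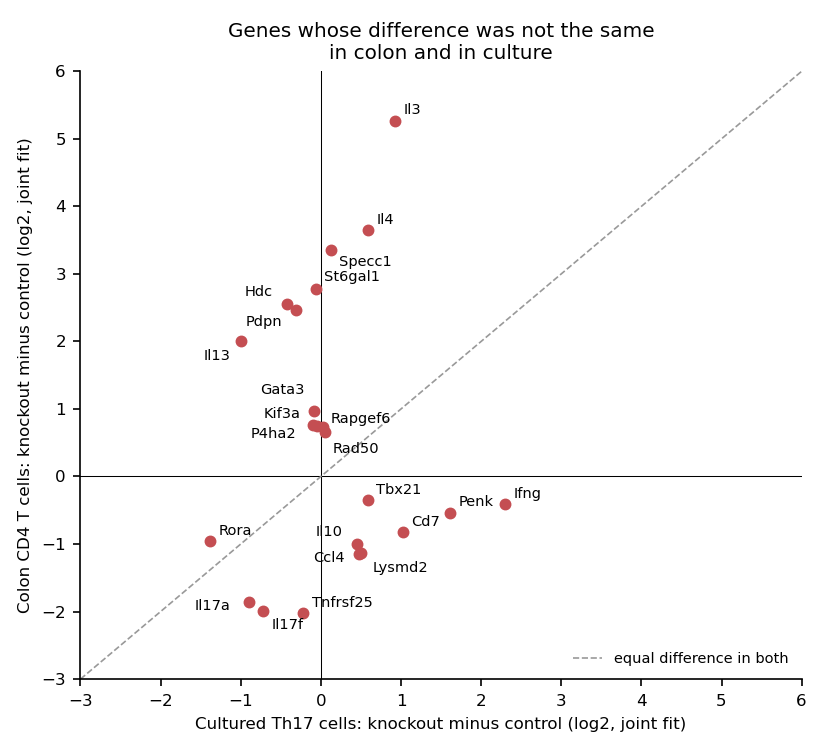
Log2 difference of knockout minus control in colon (vertical) against that in cultured Th17 cells (horizontal) from the joint fit. Only named genes whose difference between settings passed are shown, not all 2550 that passed. The dashed line marks equality. Il3, Il4, Il13 and St6gal1 lie far above the line, and Tnfrsf25, Il17a and Il17f lie below it.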

How the data were processed

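The authors deposited counts of reads for each gene, per the file headers, without normalization, and each column held whole numbers. Per the submitters' processing notes, Trim Galore, Bowtie2, featureCounts, edgeR and DESeq2 were used on build mm10, with no versions or roles. The strand setting is not given in the sources used here, so overlapping and antisense genes may share reads. Colon libraries were tested with edgeR 4.0.16 in R 4.3.3 (filterByExpr, TMM, quasi-likelihood F-test, Benjamini-Hochberg over all 13101 genes, 2 residual degrees of freedom), and the joint fit, joined by symbol for 53657 genes, had 3. Standard errors were computed from the F statistic. The fits were tested on simulated data. Coordinates and exon lengths came from GENCODE, promoters from RefSeq. Alternatives were library totals, T cell marker scaling, no filter, a replicate block, DESeq2 1.42.0 and leaving out each library, with transcript length offsets and genes seen in cultured cells added after seeing the data. Named genes were Rora, 14 fixed genes, the type 2 cytokine locus, the 6 members of each list with the lowest p (fewer in short lists), and the largest changes above fixed levels. A few further members were named to account for a group. The members and lists were chosen with earlier results of these data known. Intervals were not formed from counts, and the number of libraries limits precision.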

Additional observations from a re-analysis of the deposited data

Results flagged for a closer look

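The genotype difference in colon minus that in cultured Th17 cells was tested in the joint fit of 8 libraries by edgeR's quasi-likelihood test, adjusted after Benjamini-Hochberg, and 2550 genes passed. The values named here are that difference on the log2 scale, given only for named genes that passed. Genes with the colon difference below that of culture were Ifng (-2.71), Penk, which encodes enkephalin (-2.15), Cd7 (-1.85), Tnfrsf25 (-1.80), Lysmd2 (-1.63), Ccl4 (-1.62), Il10 (-1.45), Il17f (-1.27), Il17a (-0.96) and Tbx21 (-0.94). Genes with it above were Rora (0.43), Rad50 (0.61), Rapgef6 (0.71), Kif3a (0.79), P4ha2 (0.86), Gata3 (1.06), Pdpn (2.78), St6gal1 (2.84), Hdc (2.98), Il13 (3.01), Il4 (3.06), Specc1 (3.23) and Il3 (4.34). Rad50, Kif3a, Rapgef6 and P4ha2 lie near the type 2 cytokine genes on chromosome 11. Of 14 tested genes of this locus and its neighbours, 7 passed with the colon difference above that of culture and 0 below. The shares over all genes were 7.01% above and 9.09% below. The other tested genes of the locus did not pass. Their colon differences were 0.65 for Rad50, 0.75 for Kif3a, 0.73 for Rapgef6 and 0.76 for P4ha2, and in culture 0.05, -0.04, 0.02 and -0.10. The difference between settings no longer passed for Rad50 without control replicate 1 (0.49) or knockout replicate 2 (0.56), for Kif3a without knockout replicate 1 (0.70), and for P4ha2 when control replicate 1 (0.65) or either knockout library (0.72 and 0.99) was left out. For Rora it no longer passed without control replicate 1 (0.33) or knockout replicate 2 (0.35). Each culture library stands alone in its cytokine mix, and the colon and culture libraries also differ in origin, annotation and sex-linked RNA.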

How the results depend on the processing

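The choice of scaling moved the direction of calls most. Of genes that passed in colon, 4291 were higher and 1257 lower with library totals and 5980 and 641 with T cell marker scaling, where TMM gave 2566 and 2607. DESeq2 called 1429 higher and 2032 lower. Without each library in turn, between 1939 and 2400 were higher, between 2254 and 2733 lower, and between 4198 and 5133 passed in all. With no filter the counts were 2712 and 2857. Length offsets gave 2275 and 2651, and genes seen in cultured cells 2040 and 2006, both chosen after seeing the data. With T cell marker scaling, the log2 differences of Cd3e (0.12), Csf2 (0.12), Il21 (0.32), Tbx21 (0.014), Ctla4 (0.012), Il2ra (0.0084) and Tnfrsf4 (0.0090) turned positive, and the T cell markers that set this scaling include Cd3e.

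For colon minus culture, library totals gave 2266 above and 560 below. DESeq2 gave 1697 in all and 609 above. Leaving out each colon library gave between 1676 and 2463 genes, between 723 and 1073 above and between 953 and 1390 below, lowest without knockout replicate 2. T cell marker scaling was not run for this test.

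With the replicate number as a block, 3061 genes were higher and 3169 lower in colon, 6230 in all. Over genes, deviations of control replicate 1 and knockout replicate 1 from their group means correlated with r = 0.153. With 2 libraries per genotype, replicate 2 mirrors replicate 1 and adds no further pair. The labels do not say that a number marks a shared animal or batch, so whether the samples share more than a number is not known. The block left 1 residual degree of freedom. Having 2 libraries per genotype limits every test here.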

Other observations

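Between genotypes, log2 levels of V segments correlated least in the immunoglobulin and T cell receptor alpha sets and most in the beta set. The median log2 difference did not follow that order, at 2.35 for immunoglobulin, -0.33 for alpha and -0.49 for beta segments. Of 122 tested immunoglobulin V segments, 91 were higher and 8 lower in the knockout. Igkv4-80 had 1 count in each control library, against 117 and 108 in knockout, and Ighv1-22 had 0 and 1 against 75 and 98. Of 48 alpha V segments of the T cell receptor, 10 were higher, 17 lower and 21 did not pass. Trav12-1 had 73 and 91 control counts against 8 and 2, and Trav13-2 had 176 and 173 against 32 and 22. Of 22 beta V segments, 5 were higher, 10 lower and 7 did not pass. Among those that passed, Trbv13-1 had 941 and 1002 control counts against 395 and 411, and Trbv20 had 145 and 157 against 369 and 390.

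Sex-linked genes placed the colon and culture libraries apart. Xist, the RNA of the inactive X chromosome, was between 0 and 0.388 CPM in the colon libraries and between 531 and 1283 CPM in the cultured ones. Ddx3y, a Y-linked RNA helicase, was at 86.5 and 93.2 CPM in colon control, 114 and 148 CPM in colon knockout and at most 0.0593 CPM in culture.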
